A study of Homo sapiens with 3 samples.

Results

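The genes described here are 40 genes of the ATF4 branch of the amino acid stress response, measured in 22RV1 cells in which SPINK1 had been silenced. All 40 were among the 43317 gene names on the arrays, and all 40 passed the filter on dim probes that left 17061 genes. 22RV1 is a SPINK1-positive prostate cancer cell line. Stable lines carried 1 of 3 lentiviral short hairpins against SPINK1 (22RV1-shSPINK1-1, 22RV1-shSPINK1-2 and 22RV1-shSPINK1-3) or a scrambled hairpin (22RV1-shSCRM), so both arms had been transduced and selected with puromycin. Each shSPINK1 line supplied the Cy5 channel and 22RV1-shSCRM the Cy3 channel of a two-colour Agilent array, with 1 array for each hairpin and no swap of the dyes. A dye effect of a gene and an effect of the hairpins therefore cannot be told apart. The members were selected on these arrays after 2 of them, ASNS and SLC7A11, had been seen higher in shSPINK1 cells, with the rest drawn from known targets and partners of ATF4. Their values are given as a description, with no test.

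ATF4 is the transcription factor at the centre of the integrated stress response. When amino acids are scarce or proteins misfold, kinases phosphorylate the initiation factor eIF2 alpha, general translation slows, and ATF4 mRNA is translated more efficiently. ATF4, with partners of the C/EBP family, then raises transcription of genes for amino acid synthesis, amino acid import and tRNA charging, and under longer stress of DDIT3 (CHOP), TRIB3 and CHAC1. ATF4 activity is set largely by translation, which these RNA measurements do not show.

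Many targets of ATF4 carry a composite C/EBP-ATF element in their promoters, with the shared core TGATGNAA. This core was searched on both strands of the promoters listed by RefSeq for GRCh38.p14, each from 250 bases before to 50 after the start of transcription. All 40 members matched a RefSeq symbol, 8 of them under a newer name, and 33 had a promoter in the table. Of these, 13 (39.4%) held the core in at least 1 listed promoter, against 1217 of 27305 genes (4.46%) in the whole table and 2.67% of the 9962 tested genes found under the same symbol. The members were picked as known ATF4 targets, and the 33 genes had 54 listed promoters among them, against 35116 for the 27305 genes. NUPR1, PSPH, SHMT2, ALDH1L2, PYCR1, GPT2 and SLC7A11 were the members without an entry. The following stretches are the upstream matches of 5 members that hold the core. The core is in capitals, and each sequence is written 5′ to 3′ on the strand of its gene. In CHAC1 and AARS the core lies on the opposite strand and is read there as its reverse complement.
ASNS, chr7:97872429-97872516 (minus strand, core from 68 bases before the start): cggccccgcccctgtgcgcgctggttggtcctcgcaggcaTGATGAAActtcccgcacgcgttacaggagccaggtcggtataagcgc
CHAC1, chr15:40953222-40953309 (plus strand, core from 209 bases before the start): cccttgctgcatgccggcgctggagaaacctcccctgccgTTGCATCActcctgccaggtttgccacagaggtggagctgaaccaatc
ATF3, chr1:212565176-212565263 (plus strand, core from 191 bases before the start): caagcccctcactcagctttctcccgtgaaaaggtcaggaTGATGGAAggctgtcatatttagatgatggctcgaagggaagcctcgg
CEBPG, chr19:33374031-33374112 (plus strand, core from 42 bases before the start): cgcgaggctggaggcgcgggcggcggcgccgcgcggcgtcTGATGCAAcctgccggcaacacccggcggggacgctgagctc
AARS, chr16:70289646-70289733 (minus strand, core from 187 bases before the start): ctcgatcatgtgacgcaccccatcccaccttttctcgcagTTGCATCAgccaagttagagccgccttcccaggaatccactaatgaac
The core was also found in SLC1A5 and GARS upstream of the start, and in SLC3A2, SLC7A1, SLC1A4, MARS, NARS and TARS at or close to it. No core was found in the listed promoters of ATF4, DDIT3, DDIT4 and TRIB3, on which the results below also turn. All matches are letters in a window and were not tested for binding.

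SPINK1 itself had a log2 ratio of -3.71, -3.65 and -3.89 with hairpins 1, 2 and 3, averaging -3.75 ± 0.12 (SD, n = 3 arrays), and limma gave it a Benjamini-Hochberg adjusted p of 6.12e-07. Between 41.3% and 46.8% of the 60901 gene spots were well above background in Cy5 and between 38.8% and 42.6% in Cy3, and no gene spot was saturated. All 7 markers of prostate luminal epithelium on the list were measured, whereas CD3E, COL1A2 and PECAM1, markers of leukocytes, fibroblasts and endothelium, had no probe that passed the filter, and PTPRC, COL1A1 and CDH5 had a Cy3 brightness of only 37.8 to 51.1. All values below are log2 ratios of shSPINK1 over shSCRM cells after background correction with an offset of 50 and loess normalization, with the brightest probe of a gene standing for it. The offset draws the ratios of dim genes toward 0. Of the 40 members, 39 exceeded the background clearly in both channels of every array, and STC2 did so in Cy5 on 3 arrays and in Cy3 on 2.

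The members did not move as a block. Their median log2 ratios with hairpins 1, 2 and 3 were 0.01, 0.18 and -0.01, and the same medians over all 17061 genes were -0.02, -0.01 and -0.01. The medians of members and of all genes were furthest apart with hairpin 2. The ratio was above 0 with all 3 hairpins for 12 members, below 0 with all 3 for 8, and of mixed sign for 20, and over all 17061 genes the same counts were 3627, 4955 and 8479. It exceeded 0.5 for 3 members with hairpin 1, 10 with hairpin 2 and 0 with hairpin 3, against 99, 201 and 140 of all genes. It was below -0.5 for 2, 0 and 0 members, against 178, 163 and 120 of all genes. ASNS and SLC7A11 were the 2 members past an adjusted p of 0.05 by limma with a mean above 0.5, a limit that 0.334% of all genes passed. Both calls ended with an offset of 0, with median centring, with the Feature Extraction log ratios, in the deposited table and without hairpin 2, and that of ASNS also ended with no background subtraction (mean 0.48). No member passed it below -0.5, where 0.393% of all genes did, and the lowest member mean was -0.41. With no limit on size, limma put 6 members higher (ASNS, SLC7A11, ATF4, CEBPG, TARS and WARS), against 4.77% of all genes, and 4 lower (ATF5, SLC3A2, SLC1A5 and SLC38A2), against 8.72%. Since the members were chosen by values of the same contrast, nothing is read from these counts.

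**Figure D1:**
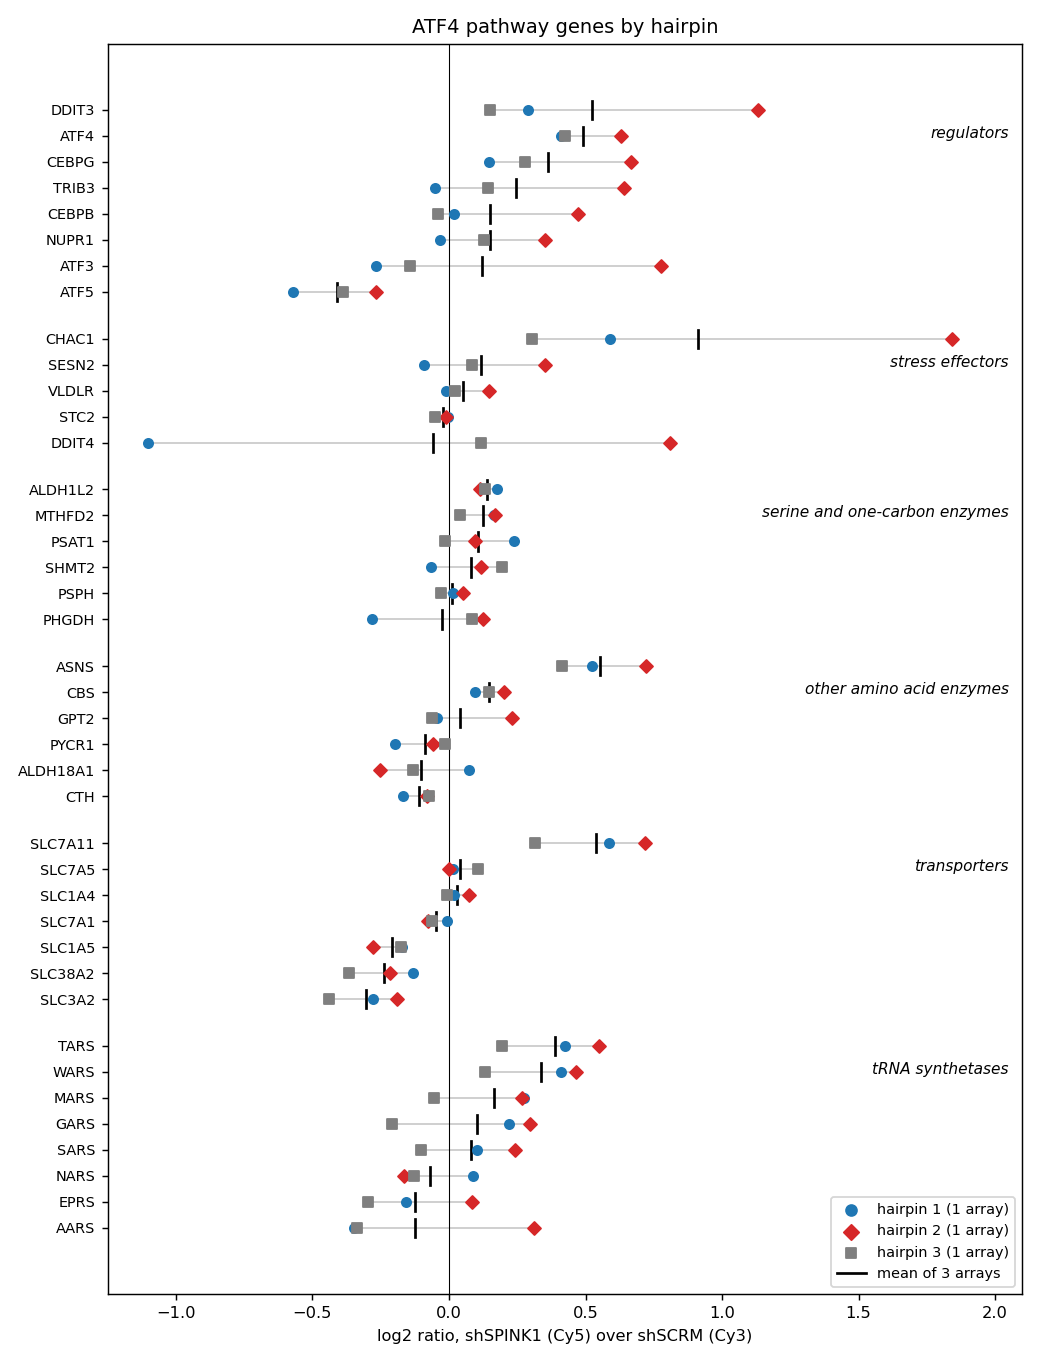
Log2 ratio of shSPINK1 over shSCRM cells (horizontal axis) for the 40 members, grouped by role; the circle, diamond and square are the single arrays of hairpins 1, 2 and 3, and the black bar is their mean. The diamonds of CHAC1 (1.84) and DDIT3 (1.13) lie far to the right of the other points, DDIT4 runs from -1.10 to 0.81, and the serine and one-carbon enzymes stay within 0.3 of 0.

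Among the 8 regulators, ATF4 had a log2 ratio of 0.41, 0.63 and 0.43 with hairpins 1, 2 and 3, a mean of 0.49 ± 0.12 (SD, n = 3 arrays), or 1.40-fold. Its probe, at chr22:39918577-39918636 (hg19, from the annotation of the array), was above 0 on every array. ATF4 was brighter than 99.4% of the genes tested. On the same arrays the log ratios of Feature Extraction, Agilent's own software, gave ATF4 a mean of 0.16. With loess kept and an offset of 0 the mean was 0.38. What made these means differ was not tested. ATF5, a related factor that is also translated under stress, was the one regulator below 0 with all 3 hairpins. Its log2 ratios were -0.57, -0.27 and -0.39, a mean of -0.41 ± 0.15 (SD, n = 3 arrays), and -0.42 by Feature Extraction.

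DDIT3, which encodes the stress factor CHOP, had a log2 ratio of 0.29, 1.13 and 0.15 with hairpins 1, 2 and 3. Hairpin 2 gave 2.19-fold and the other 2 hairpins 1.22-fold and 1.11-fold. The spread is visible in the scanned brightness, which was 369, 523 and 271 in Cy5 (shSPINK1) and 406, 331 and 366 in Cy3 (shSCRM). ATF3, a stress-induced factor of the same family, had log2 ratios of -0.27, 0.78 and -0.14, so that hairpin 2 stood on the other side of 0 from the other two. The 3 other probes of ATF3 were also highest with hairpin 2, at 0.18 to 0.25, and lay between -0.13 and 0.05 with hairpins 1 and 3, 1 of them slightly above 0 with hairpin 3. TRIB3, a pseudokinase induced by ATF4 and CHOP that restrains both, had log2 ratios of -0.05, 0.64 and 0.14.

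CEBPG, a C/EBP partner of ATF4, was above 0 with all 3 hairpins at 0.15, 0.66 and 0.28, a mean of 0.36 ± 0.27 (SD, n = 3 arrays). CEBPB, a further C/EBP partner, had 0.02, 0.47 and -0.04, and NUPR1, a small stress-induced chromatin protein, had -0.03, 0.35 and 0.13. Hairpin 2 gave the highest value of the 3 for all 8 regulators, ATF5 included, whereas it was the highest array for 31.5% of all genes. The median over the regulators was -0.01, 0.64 and 0.14 with hairpins 1, 2 and 3.

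CHAC1 and DDIT4, of the 5 stress effectors, had the widest differences between hairpins of all members. CHAC1, an enzyme that degrades glutathione, had log2 ratios of 0.59, 1.84 and 0.30, which are 1.51-fold, 3.58-fold and 1.23-fold. Its Cy3 brightness in shSCRM cells was almost the same on the 3 arrays (157, 154 and 157), while the Cy5 brightness was 178, 437 and 133. Of all 17061 genes, CHAC1 had the highest log2 ratio on any array. A second CHAC1 probe was not well above background on any array, had log2 ratios of -0.07, 0.11 and -0.03 and was left out.

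DDIT4 (REDD1), an inhibitor of mTORC1 signalling, had log2 ratios of -1.10, 0.81 and 0.12. Hairpin 1 and hairpin 2 thus lay on opposite sides of 0, at 0.466-fold and 1.75-fold, and the mean of -0.06 ± 0.97 (SD, n = 3 arrays) describes neither. The Cy3 brightness of DDIT4 was 979, 907 and 937 and the Cy5 brightness 322, 1112 and 683, so the difference lay in the shSPINK1 channel. SESN2, a leucine sensor and a further brake on mTORC1, had -0.09, 0.35 and 0.08. STC2, a secreted glycoprotein, and VLDLR, a lipoprotein receptor, both known ATF4 targets, lay between -0.05 and 0.15 on every array. Their probes were among the dimmest of the members, at the 5.24th and 22.7th percentiles of brightness.

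In the biosynthetic arm, ASNS had higher values than the other enzymes. ASNS, which makes asparagine from aspartate and glutamine, had log2 ratios of 0.52, 0.72 and 0.41, a mean of 0.55 ± 0.16 (SD, n = 3 arrays), or 1.47-fold. Its probe, at chr7:97481461-97481520 (hg19), lay at the 97.9th percentile of brightness, and Feature Extraction gave a mean of 0.36. In the other enzymes of amino acid synthesis, PYCR1 and ALDH18A1 of the proline pathway, CTH and CBS of transsulfuration and the alanine aminotransferase GPT2, every value lay between -0.25 and 0.23.

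The serine and one-carbon enzymes were PHGDH, PSAT1 and PSPH of serine synthesis, and SHMT2, MTHFD2 and ALDH1L2 of the mitochondrial folate pathway. Their means lay between -0.02 and 0.14, and the 18 single values between -0.28 and 0.24. PHGDH, the first enzyme of the serine pathway, was at -0.28 with hairpin 1 and at 0.12 and 0.08 with hairpins 2 and 3. PSAT1, the next enzyme, ran the other way, at 0.24, 0.09 and -0.01. ALDH1L2 had a dim probe (18.4th percentile), for which the offset matters, and its mean was 0.14 with the offset and 0.54 by Feature Extraction. The latter was above the mean of ASNS by Feature Extraction (0.36).

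Among the 7 transporters, SLC7A11, the light chain of the cystine-glutamate exchanger, had log2 ratios of 0.59, 0.72 and 0.31, a mean of 0.54 ± 0.21 (SD, n = 3 arrays), or 1.45-fold. Its probe at chr4:139085433-139085492 (hg19) was of middling brightness (77.3th percentile), and Feature Extraction gave a mean of 0.61. SLC3A2, the heavy chain with which SLC7A11 forms the exchanger, lay below 0 on every array, at -0.28, -0.19 and -0.44, a mean of -0.30 ± 0.13 (SD, n = 3 arrays). The 2 chains of this exchanger therefore had opposite signs with all 3 hairpins. SLC7A5, the light chain that makes the leucine transporter with the same heavy chain, had 0.01, 0.00 and 0.11.

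The neutral amino acid carriers SLC1A5 and SLC38A2 also lay below 0 with all 3 hairpins. SLC1A5 had -0.17, -0.28 and -0.17, and SLC38A2 had -0.13, -0.21 and -0.36. For SLC38A2 a second probe disagreed, with 0.32, -0.07 and -0.03, so its direction with hairpin 1 depends on the probe. The cationic transporter SLC7A1 and the serine and alanine carrier SLC1A4 stayed between -0.08 and 0.07.

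The 8 cytosolic tRNA synthetases, which load amino acids onto tRNAs, differed between the hairpins. TARS (threonine) had log2 ratios of 0.43, 0.55 and 0.19, a mean of 0.39 ± 0.18 (SD, n = 3 arrays). WARS (tryptophan) had 0.41, 0.47 and 0.13, a mean of 0.34 ± 0.18 (SD, n = 3 arrays). These were the 2 synthetases above 0 on every array. With hairpin 3 the other 6 were all below 0, between -0.34 and -0.05. AARS (alanine) had -0.35, 0.31 and -0.34, so hairpin 2 was again alone above 0, and so it was for EPRS (glutamate and proline), at -0.16, 0.08 and -0.30. GARS (0.22, 0.30 and -0.21), SARS (0.10, 0.24 and -0.10) and MARS (0.28, 0.27 and -0.05) were above 0 with hairpins 1 and 2. A second kept probe of SARS had 0.27, 0.14 and -0.14, highest with hairpin 1 in place of hairpin 2. A second probe of MARS had -0.06, -0.01 and 0.07. MARS and DDIT3 are neighbours on opposite strands whose ends overlap in the RefSeq table, and whether their probes share signal was not tested. NARS (asparagine) had 0.09, -0.16 and -0.13, the only member of the group with hairpin 2 the lowest.

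To describe how hairpin 2 differed from the others, the mean of hairpins 1 and 3 was subtracted from its log2 ratio. Each hairpin is 1 array, and all 3 share shSCRM RNA as the control, so no error between cultures of a hairpin can be given. Spots of the 283 kept probes that are replicated on an array had a standard deviation of 0.0560 to 0.0593 within the array. From this spot error alone the difference has a standard deviation of 0.0698. Error between arrays, as from labelling and hybridization, is not in this value. The median difference was 0.20 over the 40 members and -0.01 over all genes. Hairpin 2 was the highest array for 27 of the 40 members, beside the 31.5% of all genes. The difference was over 0.5 for 6 members, a size reached by 0.457% of all genes, and below -0.5 for none, against 0.111%.

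These 6 members were CHAC1 (difference 1.39), DDIT4 (1.30), ATF3 (0.98), DDIT3 (0.91), AARS (0.65) and TRIB3 (0.60). CHAC1, DDIT4 and ATF3 had the 3 highest differences of all 17061 genes, and DDIT3 was at rank 5, AARS at 31 and TRIB3 at 44. The value of ATF3 rests on its brightest probe: its 3 other probes had differences of 0.16 to 0.36, and the mean over its 4 probes was 0.44, under 0.5. CEBPB, at 0.48, and CEBPG, at 0.45, lay just under 0.5. At the other end ALDH18A1 (-0.22) and NARS (-0.14) were the members lowest with hairpin 2. The group medians of the difference were 0.47 for the regulators, 0.36 for the stress effectors, 0.24 for the tRNA synthetases, 0.06 for the other amino acid enzymes, 0.06 for the serine and one-carbon enzymes and 0.03 for the transporters. ASNS (0.25) and SLC7A11 (0.27), whose values had led to the list, had smaller differences, and without them the median was 0.18. The difference also took in values below 0 with hairpin 1 for DDIT4 and TRIB3 and with hairpins 1 and 3 for ATF3 and AARS. For SPINK1 itself the difference was 0.15, beside a mean of -3.75.

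**Figure D2:**
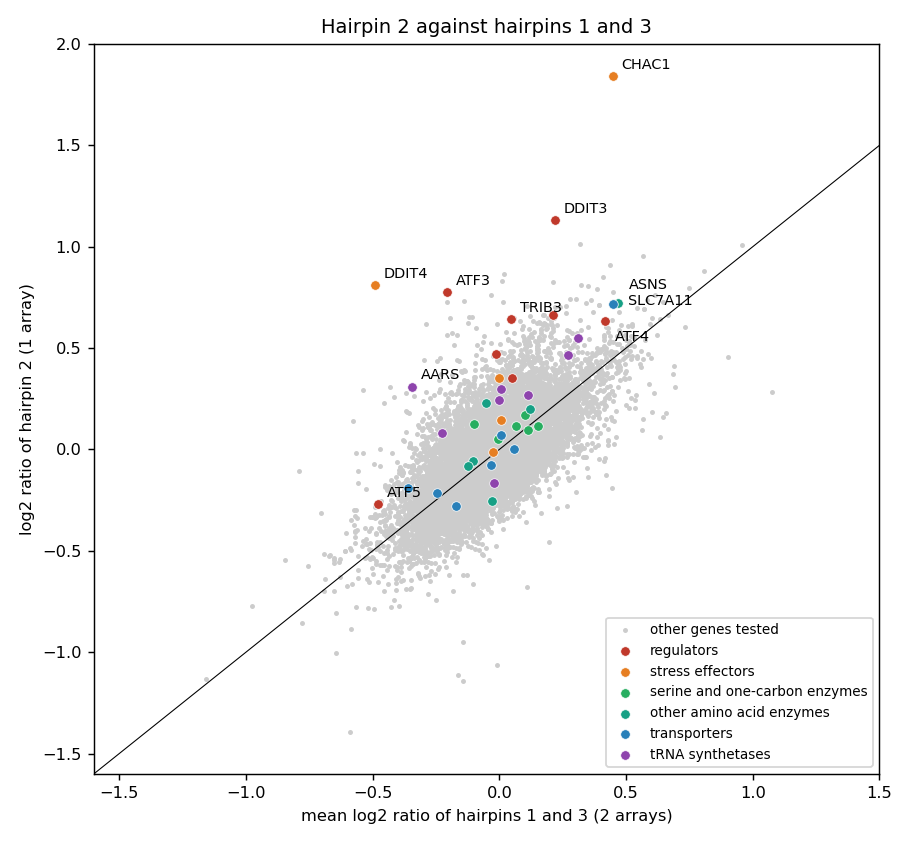
Log2 ratio with hairpin 2 (vertical axis, 1 array) against the mean log2 ratio with hairpins 1 and 3 (horizontal axis, 2 arrays), with the other genes tested in grey, the members coloured by role and the line of equal values in black; 3 genes lie outside the axes. CHAC1, DDIT3, DDIT4 and ATF3 stand above the cloud, while ASNS, SLC7A11 and ATF4 lie on its upper right edge, closer to the line.

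Brightness and normalization moved with several of these values. In the brightest 5% of the genes tested (854 genes) the median log2 ratio was 0.13 after loess and -0.01 by Feature Extraction, and 7 members (ATF4, ASNS, TRIB3, SHMT2, NUPR1, PYCR1 and CBS) lay in that range. Their part in the higher means of ATF4 and ASNS was not tested. CHAC1 (0.91 after loess, 1.26 by Feature Extraction), DDIT3 (0.52 and 0.69), SLC7A11 (0.54 and 0.61) and TARS (0.39 and 0.45) were of lower brightness and had larger means by Feature Extraction. The hairpin 2 difference was present by Feature Extraction too, at 1.68 for CHAC1, 1.40 for DDIT4, 1.02 for ATF3, 1.03 for DDIT3, 1.05 for AARS and 0.58 for TRIB3.

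**Figure D3:**
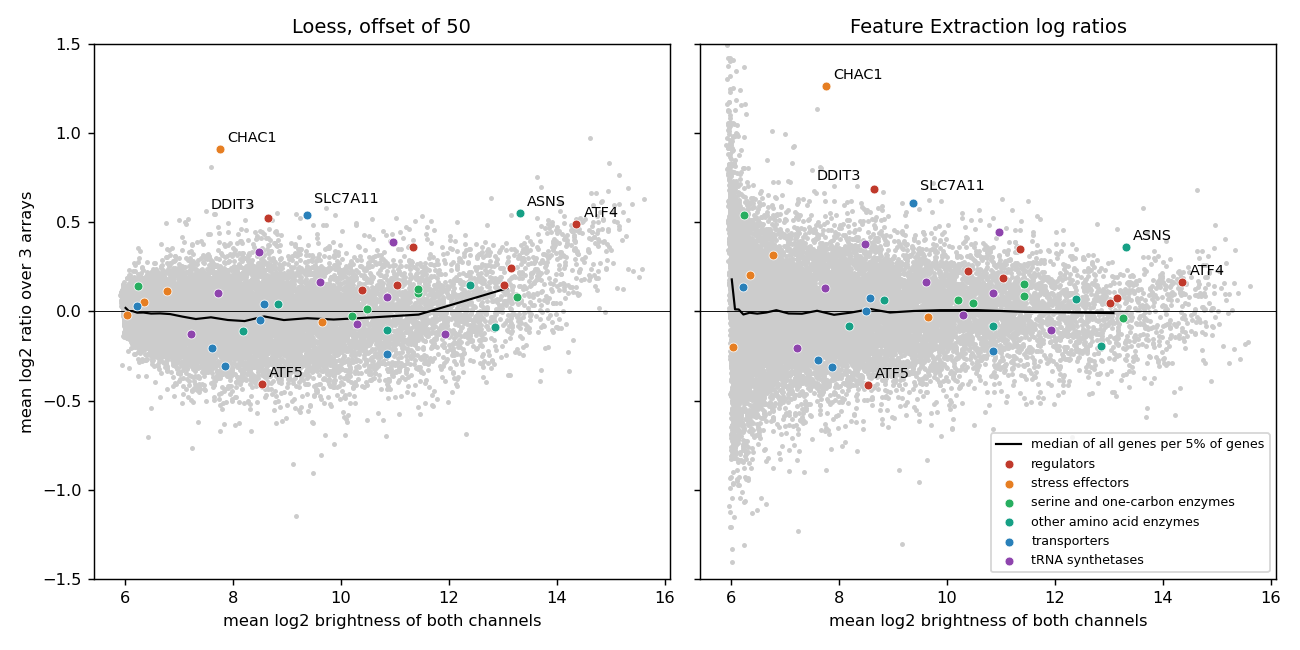
Mean log2 ratio over the 3 arrays (vertical axis) against mean log2 brightness of both channels (horizontal axis) after loess (left) and by Feature Extraction (right), with all genes in grey, their median in bins of 5% of the genes as a black line and the members coloured by role; genes outside the axes, SPINK1 among them, are not drawn. The black line bends upward to 0.13 in the brightest bin on the left, where ATF4 and ASNS lie, and stays at -0.01 there on the right.

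The wider pathway was read from 71 further genes that are not members, of which 67 were measured; FGF21, SLC7A3, MTHFD2L and ALDH1L1 did not pass the filter. By limma 1 of the 67 was higher past the limits of adjusted p and size, against 0.334% of all genes, and 0 were lower, against 0.393%, their lowest mean being -0.30. With no limit on size 4 were higher, JDP2, TYMS and EIF2S1 among them, and 1 was lower (SHMT1), against 4.77% and 8.72% of all genes. The median of their means was 0.00, against 0.08 for the members and -0.01 for all genes. Their median hairpin 2 difference was 0.09, and it was 0.25 for the other ATF4 targets and 0.18 for the other cytosolic tRNA synthetases. Hairpin 2 was the highest array for 35 of the 67, beside 31.5% of all genes, and for 8 of 12 in each of these 2 lists. The difference was over 0.5 for 3 of the 67, against 0.457% of all genes.

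Of the 12 other ATF4 targets measured, JDP2, a factor of the AP-1 family, passed. Its log2 ratios were 0.33, 1.01 and 0.30, a mean of 0.55 ± 0.40 (SD, n = 3 arrays), and its limma p, adjusted by Benjamini-Hochberg over all genes, was 0.0365. The order of the hairpins was that of DDIT3 and CHAC1, with a hairpin 2 difference of 0.70, and the call was lost without hairpin 2 (mean 0.32) and without hairpin 3 (mean 0.67). It was also lost with an offset of 0, median centring, the Feature Extraction log ratios, the deposited table and no filter on dim probes, where the adjusted p by limma was 0.0814 to 0.143. GDF15, a secreted stress cytokine, had 0.86, 0.79 and -0.09, high with hairpins 1 and 2 and not with hairpin 3, and did not pass (adjusted p of 0.0832 by limma). ERO1L, an oxidase of the endoplasmic reticulum, had the lowest mean of this list at -0.18.

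The means of the 16 genes of the eIF2 alpha pathway ran from -0.20 for EIF2AK4, the kinase GCN2 that senses uncharged tRNA, to 0.21 for EIF2S1, which encodes eIF2 alpha. EIF2B5, a subunit of the exchange factor that recharges eIF2, had 0.65 with hairpin 2 and a hairpin 2 difference of 0.76, which was rank 15 of all genes. Of the 10 other folate and serine enzymes, the means ran from -0.30 for SHMT1, the cytosolic counterpart of SHMT2, to 0.33 for thymidylate synthase (TYMS). The 12 other cytosolic tRNA synthetases had medians of 0.00, 0.15 and -0.11 with hairpins 1, 2 and 3, the same order as the 8 synthetases among the members (0.16, 0.28 and -0.11). Their means ran from -0.22 for FARSB to 0.23 for RARS, and none passed. The 17 mitochondrial tRNA synthetases, which serve the organelle's own translation, had medians of -0.04, 0.02 and -0.08, with means from -0.21 for NARS2 to 0.19 for TARS2.

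**Figure D4:**
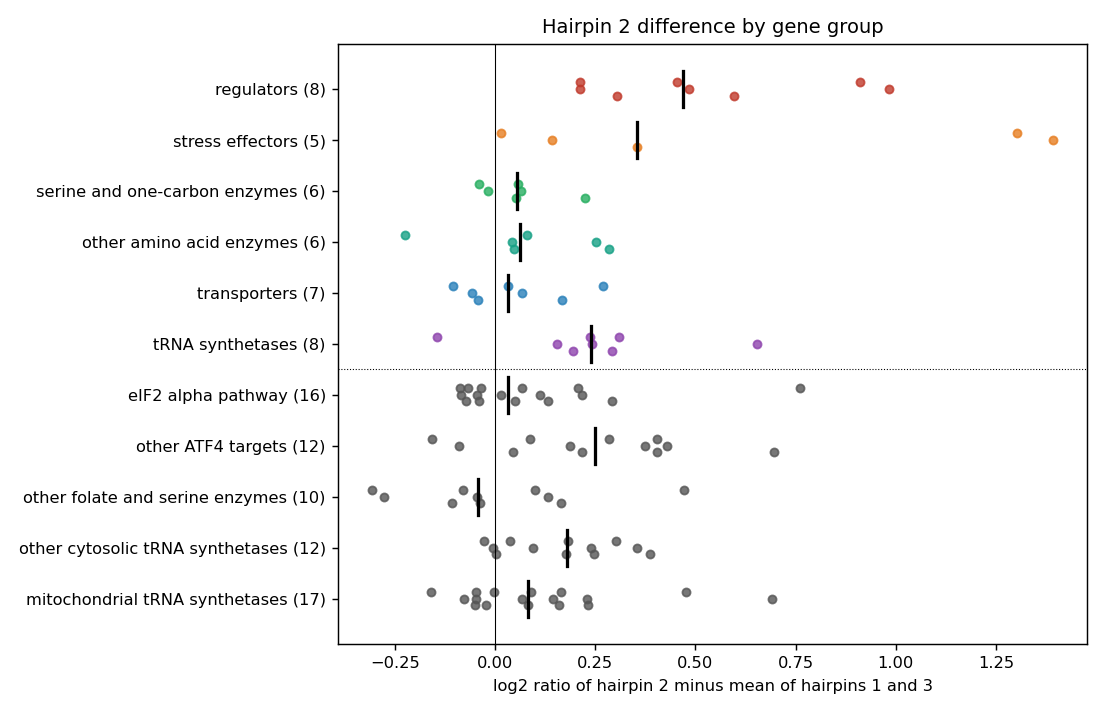
Hairpin 2 difference (log2 ratio of hairpin 2 minus the mean of hairpins 1 and 3, horizontal axis) for each measured gene, by group, with the number of genes in brackets and the group median as a black bar; the 6 groups above the dotted line are the members and the 5 below are the further pathway genes. All 8 regulators lie above 0, and the medians of the regulators (0.47) and the stress effectors (0.36) are the highest. The other ATF4 targets below the dotted line (0.25) come next, beside the tRNA synthetases among the members (0.24). The other cytosolic tRNA synthetases are at 0.18, and the transporters (0.03) and the eIF2 alpha pathway (0.03) lie near 0.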

How the data were processed

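For each array, the deposited scanner file held, for both channels, unnormalized spot intensities and local background intensities. It also held the log10 of the Cy5 over Cy3 ratio after correction by Feature Extraction 11.5.1.1, as the file headers of the deposited files name it. A further deposited table gave log2 values per gene name (43307 names). At least 99.9% of its values for 10965 genes with a single probe were within 0.02 of the Feature Extraction log2 ratio, while how it combines several probes is not given in the sources used here. Total RNA had been poly(A)-tailed before labelling. Per the study's methods, Lowess normalization, Benjamini-Hochberg adjustment and a log2 limit of 0.5 were used.

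Intensities were corrected with normexp (offset 50), normalized by loess within each array and averaged over the spots of a probe with limma 3.58.1 in R 4.3.3. Control spots were left out, as were outlier flags (0.203% of values). A probe was kept (21443 of 58201) if 1 of its channels exceeded background clearly on every array, and the brightest kept probe stood for its gene; 5 members had more than 1. The mean log2 ratio was tested against 0 with limma, adjusted over 17061 genes, and called at an adjusted p under 0.05 and beyond 0.5. Nothing in the sources used here says that the shSCRM RNA of the 3 arrays came from separate cultures, so the errors leave out how control cultures vary. The number of arrays limits the precision. The limma test and the limits of a call were tried on simulated log2 ratios, drawn independently for each array. The background correction, normalization, filter and choice of probe were not tried in this way.

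The members, groups, further pathway genes and markers were chosen with earlier results of these data known. Members are given in full where the mean exceeds 0.3 in size or a value exceeds 0.5, and otherwise by range or briefly; of the pathway lists, called genes and the highest and lowest mean of each list are named, and GDF15 and EIF2B5 were added after their values were seen. The values of 1 further pathway gene are not reported here. Probe positions come from the annotation of the array (hg19), and whether a probe lies in a coding exon or an untranslated region was not analysed. Promoters are those of RefSeq (GRCh38.p14). Alternatives changed the background correction, the offset, the filter, the normalization, the probe rule, the source of values and the size limit, or left out each array in turn.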

Additional observations from a re-analysis of the deposited data

How the results depend on the processing

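SPINK1 kept its call in every setting. By limma on the Feature Extraction log ratios no member and no further pathway gene passed (0 higher in each), and 0 genes in all were higher and 3 lower, although 809 genes had an unadjusted p under 0.05 beyond 0.5; the deposited table gave 0, 0, 0 and 3, with 719 such genes. With an offset of 0 the counts were 0 members and 0 further genes higher, and 1 gene higher and 3 lower in all, with 492 genes at an unadjusted p under 0.05 beyond 0.5. In these 3 settings 37, 37 and 40 of the 40 member means kept their sign. Median centring in place of loess moved the median of all genes to -0.23 and that of the members to -0.23 with it; 0 members were then higher and 3 lower (ATF5, SLC38A2 and SLC3A2), 0 further genes higher and 8 lower, and 2 genes higher and 1965 lower in all, and 23 of the 40 member means kept their sign, with ATF3, CEBPB, NUPR1 and TRIB3 among those that turned below 0. Then 0.102% of calls were higher, against 46.0% after loess (25% with an offset of 0, 0% by Feature Extraction and in the table). With no filter on dim probes 2 members and 0 further pathway genes were higher, and 53 genes were higher and 63 lower of all 43313. With the mean of the kept probes 2 members were higher, and 34 genes were higher and 56 lower in all. With adjusted p alone the counts were 6 members higher and 4 lower, 4 further genes higher and 1 lower, and 814 genes higher and 1487 lower. With no background subtraction 3 members were higher (CHAC1, DDIT3 and SLC7A11, without ASNS), and 76 genes were higher and 95 lower in all. Where both channels had to exceed background clearly, 3 members were higher (ASNS, CHAC1 and SLC7A11). In that setting 58 genes were higher and 67 lower of all 15933. The causes of these shifts were not tested.

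Leaving out 1 array in turn gave 0 to 5 members higher: 5 without hairpin 1 (ASNS, ATF4, CHAC1, DDIT3 and SLC7A11), 0 without hairpin 2 and 3 without hairpin 3 (ASNS, ATF4 and SLC7A11). The further genes higher were 0 to 1 (JDP2 without hairpin 1, GDF15 without hairpin 3), the genes higher in all 47 to 129 and lower 69 to 96. The members' median was 0.00 to 0.11, with 0.00 without hairpin 2. The hairpin 2 difference had a median of 0.14 against hairpin 1 alone and of 0.21 against hairpin 3 alone. The log2 ratio of each array already pairs both RNAs and was tested against 0, and there was no further group to pair. All arrays lay on 1 slide from 1 scan, so neither was fitted as a block. Dimmer probes limit CHAC1, SESN2, STC2, VLDLR, SLC1A4, AARS and ALDH1L2, whose means were further from 0 by Feature Extraction.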

Other observations

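Among the 15 genes with the highest hairpin 2 difference, 4 were members. The others that carry a common gene symbol had the following values. FH, the fumarate hydratase of the citric acid cycle, had log2 ratios of -0.25, 0.73 and -0.16 with hairpins 1, 2 and 3. HADHA, an enzyme of mitochondrial fatty acid oxidation, had -0.22, 0.73 and -0.06. TSC22D3, a glucocorticoid-induced leucine zipper protein, had -0.45, 0.65 and 0.06, an order like that of DDIT4. FAM32A had -0.03, 0.83 and 0.05, PLAA had -0.28, 0.65 and 0.04, and UNC13B had -0.17, 0.56 and -0.24. EIF2B5 had -0.03, 0.65 and -0.19, while EIF2B1, EIF2B2, EIF2B3 and EIF2B4 lay between -0.34 and 0.33. Outside these 15, HARS2, a mitochondrial tRNA synthetase, had -0.16, 0.60 and -0.03. These genes were picked for their values with hairpin 2, which rest on 1 array.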
